A study of Homo sapiens with 11 samples.

Results

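The genes examined here were expressed in RT4 bladder cancer cells and had promoters that carried little H3K4me3 in untreated BEAS-2B bronchial cells. A gene was a member if its mean TPM (a level scaled to transcript length and depth) was 10 or more over the 2 RT4 UT libraries and its BEAS-2B UT promoter lay above 0 and below 1 RPKM (reads scaled to window length and depth) of H3K4me3. Of 24657 genes listed in both assays, 7798 reached 10 TPM, and 619 of these (7.938%) were members. Another 7070 genes (90.66%) were expressed and marked, at 1 RPKM or more, and 109 (1.398%) were listed at 0 RPKM.

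RT4 is an epithelial line of human non-invasive bladder cancer, and BEAS-2B is a line of human bronchial epithelium. Bladder origin and cancer origin therefore cannot be told apart in RT4. Untreated cells (UT) had no added nickel, nickel-exposed cells (Ni-E) had 100 μM NiCl2 for 6 weeks, and nickel-washed-out cells (Ni-W) had the same exposure followed by nickel-free medium. RT4 cells were measured by RNA-Seq with 2 biological replicates of UT, Ni-E and Ni-W, the last after 2 weeks without nickel. BEAS-2B cells were measured by H3K4me3 ChIP-Seq, and each of the 3 conditions had 1 library. BEAS-2B Ni-W was 1 population grown from a colony and kept more than 6 months without nickel, although the labels also name 2 weeks for this line. The washout times therefore differed between the lines, and BEAS-2B RNA was not analysed here, so that an unmarked promoter was not checked against that gene's RNA in BEAS-2B.

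The bladder is lined by urothelium, whose superficial umbrella cells make a permeability barrier. Uroplakins, a family of membrane proteins, assemble into plaques on the apical surface of these cells, while tight junctions seal the space between them. H3K4me3 is a histone mark found at the promoters of active genes and, in mammals, also at many CpG-rich promoters irrespective of their activity. CpG is the dinucleotide that DNA methyltransferases modify, and promoters poor in it tend to be used in few tissues.

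Promoters of the members were poorer in CpG than those of expressed and marked genes. In the 300 bases from 250 before to 50 after the RefSeq start (GRCh38.p14), the 423 members with a sequence held a median of 8 CpG (interquartile range 4 to 24). The 5762 expressed and marked genes with a sequence held 28 (21 to 35), the 4626 unmarked genes under 1 TPM in RT4 held 5 (2 to 13), and all 27305 promoters of the table held 14. The ratio of observed to expected CpG was above 0.6 in 36.6% of members, against 90.3% of expressed and marked genes and 21.9% of unmarked genes under 1 TPM. These shares are descriptions, since H3K4me3 level was part of the rule.

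The promoters of 6 members are printed to show this range, each as the 250 bases before the RefSeq start on GRCh38.p14, read 5′ to 3′ on the gene's strand, with CpG in capitals. CYP4B1 (chr1:46798796-46799045, plus strand), SPINK1 (chr5:147831672-147831921, minus strand) and LCN2 (chr9:128149203-128149452, plus strand) changed in RT4 cells under nickel, as described below. They held 2, 0 and 4 CpG.
CYP4B1: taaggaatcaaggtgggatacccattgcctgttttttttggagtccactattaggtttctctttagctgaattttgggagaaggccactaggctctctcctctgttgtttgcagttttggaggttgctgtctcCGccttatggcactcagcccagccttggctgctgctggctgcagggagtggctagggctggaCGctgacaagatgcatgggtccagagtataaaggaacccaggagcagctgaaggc
SPINK1: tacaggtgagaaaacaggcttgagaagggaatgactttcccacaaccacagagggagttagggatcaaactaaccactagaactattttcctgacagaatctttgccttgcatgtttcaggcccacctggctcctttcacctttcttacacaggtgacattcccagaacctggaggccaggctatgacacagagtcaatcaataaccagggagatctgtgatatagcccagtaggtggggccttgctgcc
LCN2: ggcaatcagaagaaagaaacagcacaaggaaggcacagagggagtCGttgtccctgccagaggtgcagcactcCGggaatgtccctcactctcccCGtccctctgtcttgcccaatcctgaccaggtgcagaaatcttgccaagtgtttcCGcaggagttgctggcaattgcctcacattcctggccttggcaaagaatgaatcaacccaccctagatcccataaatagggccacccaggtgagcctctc
B2M (chr15:44711267-44711516, plus strand), SYK (chr9:90801350-90801599, plus strand) and HOXD8 (chr2:176129455-176129704, plus strand) held 18, 13 and 28 CpG. B2M, the light chain of MHC class I, is used in nearly all tissues, and the promoters of SYK and HOXD8 had more H3K4me3 in BEAS-2B Ni-W cells.
B2M: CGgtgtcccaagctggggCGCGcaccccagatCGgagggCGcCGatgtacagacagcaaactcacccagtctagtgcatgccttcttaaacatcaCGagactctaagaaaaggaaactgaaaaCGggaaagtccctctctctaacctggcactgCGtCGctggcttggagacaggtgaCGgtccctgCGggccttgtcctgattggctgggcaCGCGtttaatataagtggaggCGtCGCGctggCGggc
SYK: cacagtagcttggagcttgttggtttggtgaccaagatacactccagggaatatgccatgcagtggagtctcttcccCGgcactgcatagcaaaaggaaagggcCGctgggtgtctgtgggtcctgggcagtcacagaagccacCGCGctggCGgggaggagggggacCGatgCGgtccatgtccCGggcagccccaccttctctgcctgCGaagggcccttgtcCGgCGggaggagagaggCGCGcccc
HOXD8: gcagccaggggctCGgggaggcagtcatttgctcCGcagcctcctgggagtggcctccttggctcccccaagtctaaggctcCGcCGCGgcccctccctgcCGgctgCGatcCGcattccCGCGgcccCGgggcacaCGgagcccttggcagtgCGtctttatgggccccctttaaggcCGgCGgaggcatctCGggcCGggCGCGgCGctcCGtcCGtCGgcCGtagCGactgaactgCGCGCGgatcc
The letters TATAAA, searched on both strands, lay 29 bases before the start in CYP4B1 and in none of the other 5 printed stretches.

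**Figure D1:**
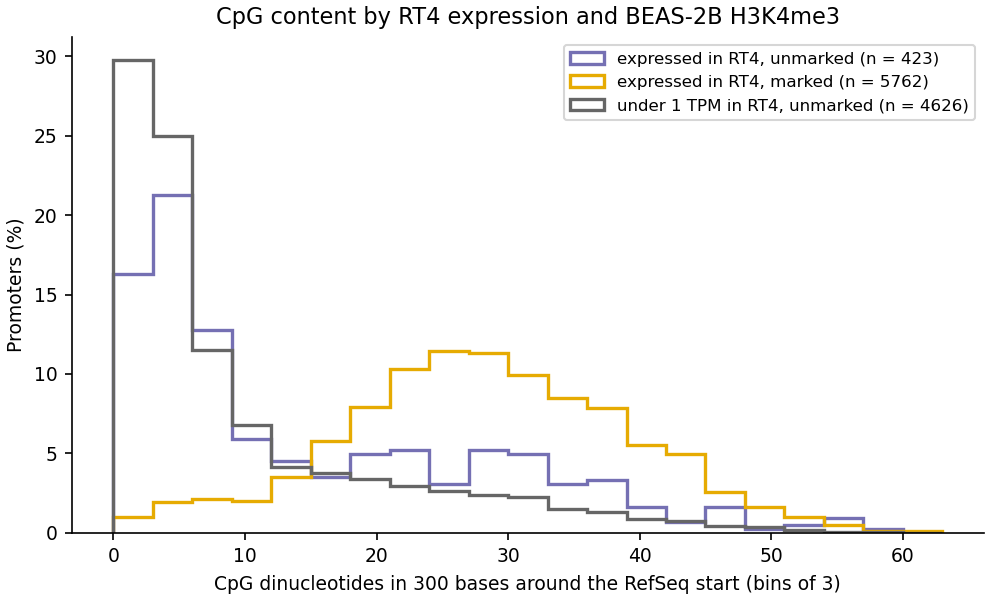
Share of promoters (percent, vertical axis) by the number of CpG in 300 bases around the RefSeq start (horizontal axis, bins of 3) for 423 members, 5762 expressed and marked genes and 4626 unmarked genes under 1 TPM in RT4. The members and the unmarked genes peak at low CpG, with medians of 8 and 5, while the expressed and marked genes centre on a median of 28.

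Short motifs were read in the same 300 bases on both strands. TATAAA was present in 11.6% of members, 4.44% of expressed and marked genes, 18% of unmarked genes under 1 TPM in RT4 and 12% of all promoters in the table. The AP-1 letters TGANTCA were present in 10.6%, 4.01%, 9.55% and 7.76%. The grainyhead letters AACCNGTT were rare in all of them, at 1.42%, 1.23%, 2.1% and 1.73%. None of the motifs contains another, and a match is a description of the letters only.

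The members covered a wide range in both assays. Their mean UT TPM ran from 10.02 to 6623.5 with a median of 28.345, and 112 of them reached 100 TPM. They held 7.403% of the summed UT TPM. Their UT promoter RPKM ran from 0.009 to 0.995 with a median of 0.282, and 9 lay under the 3 reads taken as the floor. The members nearest to the limits were ZRANB1 (10.02 TPM), CDRT4 (10.045 TPM) and ANXA8L1 (10.05 TPM), with CCR1 (9.97 TPM), TRHDE-AS1 (9.965 TPM) and UGT1A1 (9.96 TPM) just outside. MPZL2, TMEM265 and NLGN2 lay just inside the other limit at 0.995 RPKM, with BDH2 (1.004 RPKM), PPL (1.013 RPKM) and WSCD2 (1.013 RPKM) just outside. MRPL23, TRPV6 and SLC22A18 had the lowest promoter level above 0, at 0.009 RPKM, which is 1 read.

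**Figure D2:**
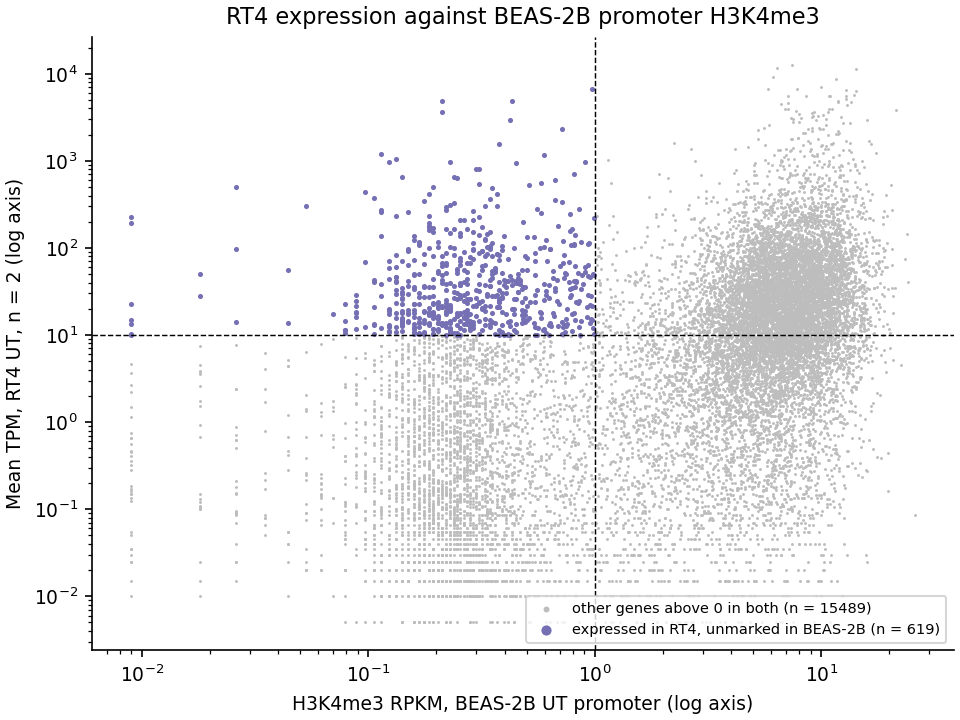
Mean TPM in RT4 UT cells (vertical log axis, n = 2) against H3K4me3 RPKM at the BEAS-2B UT promoter (horizontal log axis, 1 library), 1 point per gene above 0 in both. The dashed lines are the limits of 10 TPM and 1 RPKM, and the 619 members fill the upper left, with quartiles of 0.185 and 0.4625 RPKM.

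A low level in the window need not be a low level at every start of the gene. The window reached 2 kb to each side of a TSS, and the choice of TSS for genes with several is not given in the sources used here. Of the 594 members with a position in GENCODE version 44, 292 (49.16%) had another annotated start more than 2 kb away, against 22.14% of expressed and marked genes and 17.8% of unmarked genes under 1 TPM. Members with such starts included GNAS, the stimulatory G protein subunit, TPM3, a tropomyosin, and HK1, a hexokinase, all of which are widely expressed. B2M had no such start, and its promoter was at 0.379 RPKM in UT, 0.44 in Ni-E and 0.459 in Ni-W. The 302 members with 1 start region were therefore also counted alone. Their median CpG was 9.

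The RT4 libraries expressed urothelial and general epithelial markers. Of 9 urothelial markers, 7 were at 10 TPM or more in all 6 libraries, as were 5 of 5 general epithelial markers. Each of the lists of lung airway, fibroblast, leukocyte and endothelial markers summed to at most 13.45 TPM in any library. In BEAS-2B UT, 2 of 5 lung airway markers reached 1 RPKM, as did 3 of 7 fibroblast markers and 0 of 5 leukocyte markers. RT4 libraries held between 17075833 and 27736454 estimated counts, and those numbered replicate 2 were deeper than those numbered replicate 1 in all 3 groups. The BEAS-2B libraries held 28385725 (UT), 37493949 (Ni-E) and 29933551 (Ni-W) reads.

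All 5 uroplakins were members. UPK1A (chr19:35666517-35678481), UPK1B (chr3:119173517-119205143), UPK2 (chr11:118925164-118958559), UPK3A (chr22:45284949-45295874) and UPK3B (chr7:76510525-76516522) are protein-coding genes on the plus strand of GRCh38. Their promoters stayed between 0.053 and 0.426 RPKM in the 3 BEAS-2B libraries. Uroplakins pair in the plaque as UPK1A with UPK2 and UPK1B with UPK3A.

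UPK1A fell in Ni-E cells and the other 4 were not called by edgeR, while DESeq2 called UPK1B and UPK2 lower. The median log2 fold change of the 5 was −0.8136, beside −0.0117 over all genes tested. UPK1A stood at 70.57 and 92.53 TPM in UT, 16.1 and 18.47 in Ni-E, and 39.58 and 44.42 in Ni-W. The 3 groups did not overlap. Fewer cells that make UPK1A and less of its RNA per cell cannot be told apart in bulk RNA. Its log2 fold change in Ni-E against UT was −2.27 ± 0.33 (SE), with an adjusted p of 0.0376 (edgeR's quasi-likelihood test with Benjamini-Hochberg adjustment over all genes tested). UPK2 stood at 284.61 and 402.37 TPM in UT, 96.18 and 127.77 in Ni-E, and 222 and 328.23 in Ni-W. Both Ni-E replicates lay below both UT replicates, while Ni-W overlapped UT. The log2 fold change of UPK2 in Ni-E against UT was −1.65 ± 0.43 (edgeR adjusted p = 0.159).

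UPK1B, UPK3A and UPK3B had smaller differences. UPK1B stood at 105.92 and 86.24 TPM in UT, 57.99 and 51.88 in Ni-E, and 117.48 and 82.57 in Ni-W, a log2 fold change in Ni-E of −0.81 ± 0.16 (edgeR adjusted p = 0.0712). UPK3A stood at 71.39 and 95.36 TPM in UT, 49.8 and 59.18 in Ni-E, and 102.05 and 127.29 in Ni-W (edgeR adjusted p = 0.614 for Ni-E). In both genes the Ni-E replicates lay below the UT and the Ni-W replicates. The UPK3B replicates of Ni-E lay above those of UT and within the range of Ni-W, with 293.09 and 312.92 TPM in UT, 390.96 and 405.63 in Ni-E, and 368.21 and 420.49 in Ni-W (edgeR adjusted p = 0.592 for Ni-E).

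**Figure D3:**
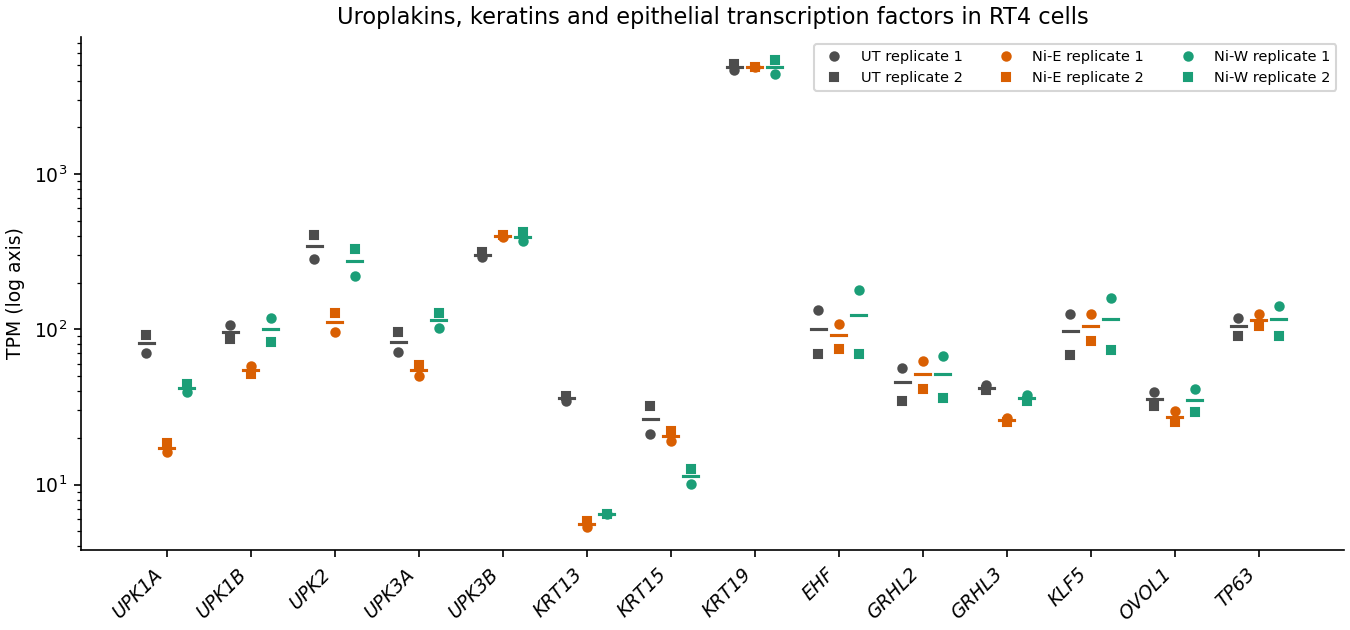
TPM (vertical log axis) of 5 uroplakins, 3 keratins and 6 epithelial transcription factors among the members in each RT4 library, with circles for replicate 1, squares for replicate 2 and bars for the mean of 2. UPK1A and KRT13 have Ni-E replicates far below UT, KRT13 is as low in Ni-W, and EHF, KLF5 and GRHL2 differ more between replicates than between groups.

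Of the transcription factors listed for urothelium and epithelium, 16 of 19 reached 10 TPM and 6 of these were members. The members were EHF, an ETS factor of epithelia, the grainyhead factors GRHL2 and GRHL3, the zinc finger factors KLF5 and OVOL1, and TP63, the p53 relative of basal cells. The other 10, which include the luminal factors GATA3, FOXA1 and PPARG, had marked promoters in BEAS-2B UT. EHF stood at 132.91 and 69.28 TPM in UT, 108.62 and 75.05 in Ni-E, and 178.87 and 68.96 in Ni-W, so that its replicates differed more than its groups. GRHL3 was the 1 factor whose Ni-E replicates (26.68 and 25.2 TPM) lay below both UT (43.68 and 40.38 TPM) and Ni-W (37.47 and 34.39 TPM), with an edgeR adjusted p of 0.157 against UT. edgeR called 0 of the 6 in the 3 comparisons, and the median of their log2 fold changes was −0.0029 in Ni-E and 0.0945 in Ni-W against UT, beside −0.0117 and 0.0012 over all genes tested. Of all 19 listed factors, 0 rose and 1 fell in Ni-E.

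Among keratins, the filament proteins of epithelia, 9 of 17 reached 10 TPM, and KRT13, KRT15 and KRT19 were members. Of the 14 keratins tested, 0 rose and 3 fell in Ni-E, and KRT13 was the 1 member among those that fell. The median log2 fold change of the 14 in Ni-E was −0.0482. KRT13, a keratin of basal and intermediate urothelial cells, stood at 34.47 and 37.4 TPM in UT, 5.36 and 5.86 in Ni-E, and 6.45 and 6.48 in Ni-W. It fell by 2.69 ± 0.27 in Ni-E on the log2 scale (edgeR adjusted p = 0.0169) and by 2.52 ± 0.27 in Ni-W (edgeR adjusted p = 0.0294), with all 4 nickel libraries below both UT libraries. KRT15, a basal keratin, stood at 21.02 and 32.21 TPM in UT, 18.94 and 22.18 in Ni-E, and 10.04 and 12.58 in Ni-W (edgeR adjusted p = 0.339 for Ni-W against UT). KRT19, a keratin of simple epithelia, was between 4398.62 and 5417.8 TPM in all 6 libraries, and its groups overlapped.

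Barrier, traffic and protease genes were present among the members, and edgeR called none of those named here in the 3 comparisons, while DESeq2 called TJP3 lower in Ni-E. Tight junction and polarity members were CLDN4, a claudin, MARVELD2, which is tricellulin, the scaffold TJP3 and the polarity protein CRB3, which were 4 of the 9 listed genes at 10 TPM or more. TJP3 stood at 14.92 and 12.7 TPM in UT, 5.64 and 6.38 in Ni-E, and 8.36 and 8.4 in Ni-W, with no overlap between UT and either nickel group (edgeR adjusted p = 0.0786 and 0.348). Membrane traffic members were RAB25, a recycling GTPase, MAL, an apical sorting protein, AP1M2, an epithelial adaptor subunit, and SYTL1. Of 7 membrane serine proteases and inhibitors at 10 TPM or more, 5 were members, namely ST14 (matriptase), PRSS8 (prostasin), PRSS22, TMPRSS4 and their inhibitor SPINT2. Of the 12 expressed genes of epithelial adhesion and the desmosome, 0 were members, as were 0 of 7 expressed interferon-stimulated genes. Members were 7.938% of all expressed genes, so that nothing is read from a 0 in lists this short. Among all tested genes of 4 lists, 1 of 11 tight junction genes, 1 of 14 adhesion genes, 0 of 14 traffic genes and 0 of 7 protease genes fell in Ni-E. None of the genes in these 4 lists rose.

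Xenobiotic and retinoid metabolism had 6 members among 8 expressed genes of the list. Among the members, 1 rose and 1 fell in Ni-E. Over the 14 tested genes of the list, 2 rose and 1 fell, beside 1.45% and 0.71% of all genes tested. CYP4B1 (chr1:46757838-46819413), a cytochrome P450 of lung and bladder, stood at 771.4 and 853.58 TPM in UT, 152.58 and 162.23 in Ni-E, and 460.38 and 474.23 in Ni-W. The 3 groups did not overlap, and CYP4B1 fell by 2.39 ± 0.25 in Ni-E on the log2 scale (edgeR adjusted p = 0.0179). ALDH3A1, an aldehyde dehydrogenase, moved the other way, with 36.11 and 38.39 TPM in UT, 143.05 and 149.45 in Ni-E, and 47.5 and 59.94 in Ni-W (log2 fold change in Ni-E 1.96 ± 0.29, edgeR adjusted p = 0.0388). The aldo-keto reductases AKR1C2 and AKR1C3, the P450 CYP4F11 and the glucuronosyltransferase UGT1A6 were not called by edgeR, while DESeq2 called CYP4F11 higher in Ni-E. AKR1C2 with AKR1C3, and UGT1A6 with the other UGT1A genes, share sequence, so that the division of reads between them is uncertain.

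Secreted and surface glycoproteins had 5 members among 9 expressed genes of the list, of which 2 rose in Ni-E. Over the 11 tested genes of the list, 2 rose and 1 fell. The median log2 fold change in Ni-E was −0.1162 over the members and −0.5342 over the tested genes of the list. LCN2, a protein that binds bacterial siderophores, stood at 63.63 and 78.74 TPM in UT, 437.16 and 526.51 in Ni-E, and 380.3 and 521.81 in Ni-W. SLPI, an inhibitor of neutrophil proteases, stood at 12.26 and 12.11 TPM in UT, 107.39 and 125.08 in Ni-E, and 47.89 and 67.76 in Ni-W. For both genes all 4 nickel libraries lay above both UT libraries. In Ni-E against UT, LCN2 rose by 2.73 ± 0.38 (edgeR adjusted p = 0.0329) and SLPI by 3.23 ± 0.38 (edgeR adjusted p = 0.0228) on the log2 scale. In Ni-W the differences were 2.63 and 2.22, with edgeR adjusted p of 0.0604 and 0.0798. AGR2, a protein disulfide isomerase of mucus-secreting cells, was between 417.66 and 669.29 TPM and was not called. CA9, a carbonic anhydrase and the 1 member among 12 expressed targets of hypoxia-inducible factor, stood at 83.52 and 90.45 TPM in UT, 143.84 and 160.09 in Ni-E, and 80.78 and 98.32 in Ni-W (edgeR adjusted p = 0.34 for Ni-E). Over the 16 tested targets of that list, which are mostly not members, 6 rose and 0 fell in Ni-E, with a median log2 fold change of 1.3379.

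The highest members by UT mean were S100A2, KRT19, FABP4, S100P, CST1, ADIRF, B2M, GPX2, GNAS, FDFT1, S100A9, SPINT2, DHRS2, FXYD3 and CYP4B1. Of these 15, edgeR called CYP4B1, and DESeq2 and limma also called DHRS2 lower in Ni-E. S100A2, a calcium-binding protein of stratified epithelia, had the highest level, from 5236.82 to 8679.9 TPM over the 6 libraries. FABP4, a fatty acid carrier, was between 3614.26 and 5316.2 TPM. DHRS2, a short-chain dehydrogenase, stood at 884.95 and 1030.36 TPM in UT, 372.45 and 421.73 in Ni-E, and 609.46 and 780.13 in Ni-W. Its 3 groups did not overlap, and its log2 fold change in Ni-E against UT was −1.30 ± 0.33 (edgeR adjusted p = 0.144).

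Over all members, more were lower than higher in nickel-exposed RT4 cells. Of the 619 members, 609 had enough counts to be tested. In Ni-E against UT, 6 were called higher (0.985%) and 26 lower (4.27%), where a call needed a 1.5-fold difference and an adjusted p below 0.05. Among all 7771 tested genes at 10 TPM or more, which were chosen by UT level in the same way, 0.811% were called higher and 0.669% lower. Among all 14502 genes tested, 1.45% were called higher and 0.71% lower. The median log2 fold change was −0.1014 over members and −0.0464 over all tested genes at 10 TPM or more. Both are smaller in size than 0.121, the standard deviation between replicates of the members' median log2 CPM (counts scaled to depth). Nothing is therefore read from these medians. Since the UT libraries also chose the members, these counts are set beside those of genes with the same limit and carry no test of their own. The calls rest on both replicates, since without UT replicate 1, 0 were higher and 11 lower, without UT replicate 2, 0 and 3, and without either Ni-E replicate, 0 and 0.

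Members whose replicates did not overlap between the groups showed the same imbalance. In Ni-E against UT, 106 members (17.4%) had both Ni-E replicates above both UT replicates in CPM, against 15.3% of all tested genes at 10 TPM or more and 20.3% of all genes tested. For lower values there were 197 members (32.3%), against 19.7% and 19.3%. Of the 292 tested members with 1 start region, 3 were called higher and 17 lower (5.82%). The same number of tested members had further starts, and 2 of them were called higher and 9 lower (3.08%).

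Among the 26 members called lower, the 5 with the largest fall by the rule for named genes were SPINK1, a secreted trypsin inhibitor, PLEKHS1, CXCL17, a chemokine of mucosal surfaces, HOPX, a homeodomain protein that does not bind DNA, and PLA2G2A, a secreted phospholipase. SPINK1 stood at 78.76 and 101.49 TPM in UT, 1.67 and 0.56 in Ni-E, and 62.77 and 81.92 in Ni-W. Its fall in Ni-E was 6.50 ± 0.58 on the log2 scale (edgeR adjusted p = 0.0122), and its Ni-W replicates overlapped those of UT. PLA2G2A stood at 106.36 and 142.35 TPM in UT, 7.98 and 9.97 in Ni-E, and 64.96 and 79.31 in Ni-W, a log2 fold change of −3.82 ± 0.39 in Ni-E (edgeR adjusted p = 0.0176). Both genes were far lower in Ni-E than in either of the other groups.

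CXCL17, HOPX and PLEKHS1 were low in both nickel groups. CXCL17 stood at 45.35 and 57.65 TPM in UT, 2.17 and 3.9 in Ni-E, and 13.71 and 13.81 in Ni-W. HOPX stood at 73.15 and 67.03 TPM in UT, 4.66 and 4.59 in Ni-E, and 15.9 and 13.48 in Ni-W. PLEKHS1 stood at 17.06 and 14.04 TPM in UT, 0.69 and 0.66 in Ni-E, and 3.77 and 2.91 in Ni-W. In all 3 genes Ni-W lay between Ni-E and UT without overlap.

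The other genes called lower, named after their values were seen, had log2 fold changes from −7.54 to −0.96 in Ni-E. FAM3B, a secreted cytokine-like protein, was nearly absent from Ni-E at 0.1 and 0.06 TPM, against 12.59 and 15.7 in UT. QPRT makes nicotinic acid mononucleotide in NAD synthesis, and ACOT4 is an acyl-CoA thioesterase. ACOT4 stood at 13.78 and 12.17 TPM in UT, 2.65 and 3.3 in Ni-E, and 6.87 and 7.26 in Ni-W. IVL (involucrin) and PADI3, a peptidylarginine deiminase, belong to terminal differentiation of stratified epithelia. PADI3 stood at 116.89 and 96.33 TPM in UT, 23.16 and 19.68 in Ni-E, and 65.31 and 53.35 in Ni-W. Also called lower were TAC3, TTC39A, LGALS4, ABCB11, NR0B1, C15orf48, CAPN8, CTSE, MGP, KCNJ15 and BCAS1, with KRT13, CYP4B1 and UPK1A described above.

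Besides SLPI, LCN2 and ALDH3A1, the members called higher in Ni-E were MMP1, TRIM16L and COL17A1. MMP1, a collagenase, stood at 22.8 and 21.88 TPM in UT, 93.81 and 91.7 in Ni-E, and 38.22 and 33.49 in Ni-W. COL17A1, a hemidesmosome collagen named after its values were seen, stood at 37.44 and 31.27 TPM in UT, 90.22 and 74.67 in Ni-E, and 76.29 and 51.89 in Ni-W. For both genes the Ni-E replicates and the Ni-W replicates lay above both UT replicates. TRIM16L has a near-identical paralog, TRIM16, so that its counts are uncertain.

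**Figure D4:**
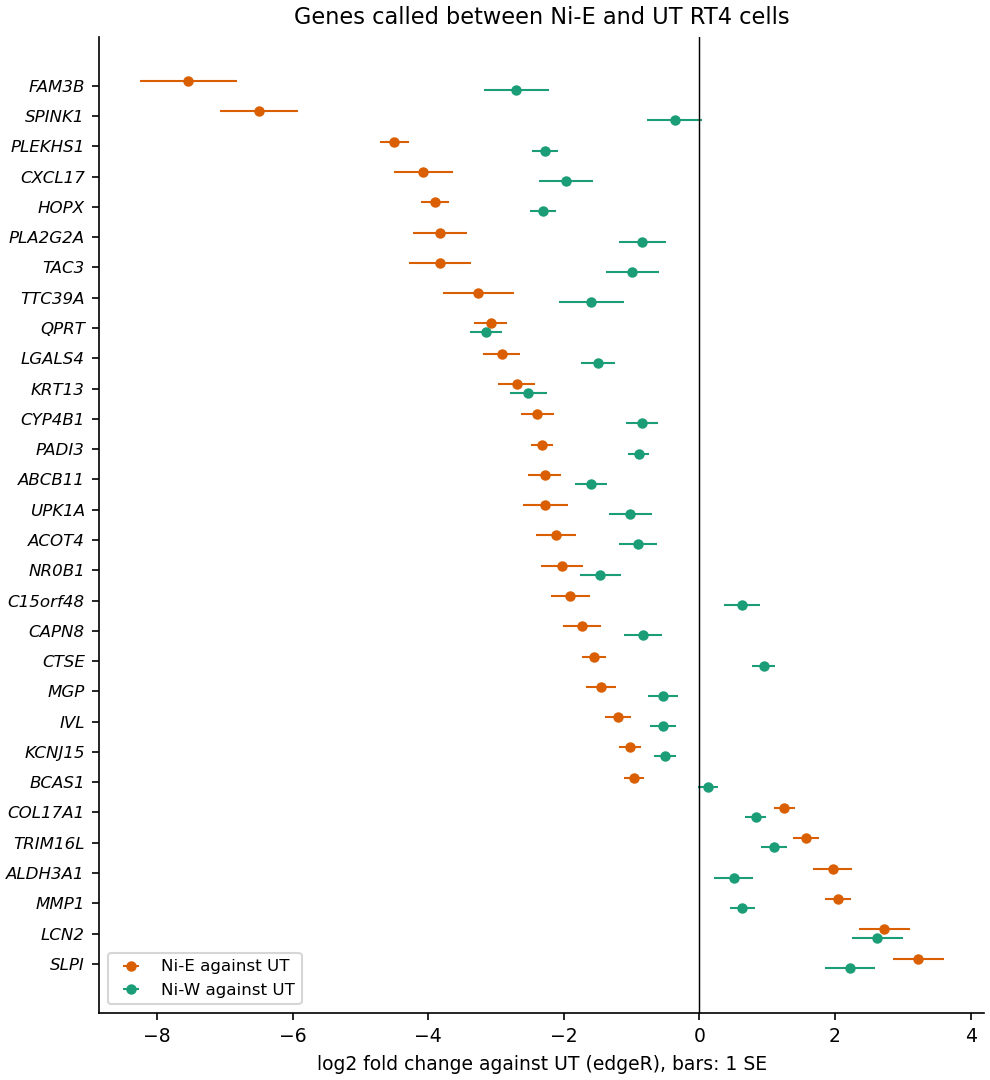
Log2 fold change against UT (horizontal axis, edgeR, bars 1 SE, n = 2 per group) of 24 of the 26 members called lower and the 6 called higher in Ni-E, for Ni-E and for Ni-W, which share the UT libraries. Most Ni-W values lie nearer to 0 than the Ni-E values, while QPRT, KRT13 and LCN2 are about as far from 0 in both.

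After 2 weeks without nickel, 4 members remained called lower against UT and 0 were called higher. The 4 were QPRT, KRT13, HOPX and PLEKHS1, which were 0.657% of the tested members. Of all tested genes at 10 TPM or more, 0.116% were called lower and 0.232% higher, and of all genes tested, 0.0965% and 0.503%. At an unadjusted edgeR p under 0.05, 40 members were higher (6.57%) and 64 lower (10.5%), against 868 (5.99%) and 455 (3.14%) of all genes tested. DESeq2 called 17 members higher (2.79%) and 26 lower (4.27%), against 371 (2.56%) and 112 (0.772%) of all genes tested. QPRT stood at 23.9 and 21.56 TPM in UT, 2.96 and 2.46 in Ni-E, and 2.62 and 2.61 in Ni-W, with a log2 fold change of −3.15 ± 0.24 in Ni-W (edgeR adjusted p = 0.0131). HOPX had −2.30 ± 0.19 (edgeR adjusted p = 0.0145) and PLEKHS1 −2.28 ± 0.19 (edgeR adjusted p = 0.016). Leaving out Ni-W replicate 1 or Ni-W replicate 2 left 1 member called lower, and leaving out UT replicate 1, UT replicate 2, Ni-E replicate 1 or Ni-E replicate 2 left 0.

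The comparison of Ni-W with Ni-E does not use the UT libraries that chose the members. With group alone in the model, edgeR called 0 members in either direction and 0 genes overall (0.0%), with a smallest adjusted p of 0.0806. This 0 depended on the model, since a fit that also used the replicate number called members in both directions, as given in the closing section. At an unadjusted edgeR p under 0.05, 56 members were higher in Ni-W (9.2%) and 19 lower (3.12%), against 472 (3.25%) and 336 (2.32%) of all genes tested. DESeq2 called 19 members higher (3.12%) and 4 lower (0.657%), against 102 (0.703%) and 60 (0.414%) of all genes tested. Both Ni-W replicates lay above both Ni-E replicates in 127 members (20.9%), against 10.8% of all tested genes at 10 TPM or more, and below them in 70 members (11.5%), against 9.75%. The median log2 fold change was 0.0641 over members and 0.0229 over all tested genes at 10 TPM or more. Both are below the standard deviation of 0.121 between replicates given above, so that nothing is read from them. CTSE, the aspartic protease cathepsin E, had the smallest adjusted p among members and was picked out after its values were seen. It stood at 21.64 and 19.02 TPM in UT, 7.3 and 6.84 in Ni-E, and 45.39 and 36.4 in Ni-W, so that Ni-W lay above UT as well.

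The 26 members called lower in Ni-E had a median log2 fold change of −2.30 in Ni-E and −0.97 in Ni-W against the same UT libraries. In Ni-W, 23 of them were still below UT, and 25 of them were above Ni-E. The exceptions below UT were C15orf48, CTSE and BCAS1, whose Ni-W values were above UT, and the exception above Ni-E was QPRT. The 6 members called higher in Ni-E had medians of 2.00 and 0.97, and in Ni-W all 6 were above UT and below Ni-E. These genes were picked by their Ni-E values, so that a value nearer to UT in Ni-W carries no test here.

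Of the members, 10 could not be tested, and all were short RNAs whose length was between 109 and 146 bases. They were MIR205, MIR5193, SCARNA22, SNORA18, SNORA27, SNORA31, SNORA5A, SNORA5C, SNORD15B and SNORD89. MIR205 was listed at 101.44 TPM in UT replicate 2 and at 0 in UT replicate 1, so that 1 library set its membership, as for SNORA31, listed at 58.31 and 0 TPM.

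At the BEAS-2B promoters of the members, 16 were past the fold used here after nickel was removed. With 1 library per condition there is no replicate check and no test, and the intervals cover counting error only. A promoter was counted as past the fold if its level, divided by the median of its library, differed 2-fold or more and it reached 1 RPKM in either library. In Ni-E against UT, 0 of 619 members were past the fold higher, against 0.0686% of all listed promoters and 0.0787% of the unmarked ones, shares at which fewer than 1 member would be counted, so that nothing is read from this 0. No member could be past the fold lower against UT in Ni-E or Ni-W, since all were below 1 RPKM in UT. The members' median RPKM was 0.282 in UT and 0.287 in Ni-E, and 16 members reached 1 RPKM in Ni-E. The highest of these was SNORA31, at 0.934 RPKM in UT and 1.474 in Ni-E, a small nucleolar RNA with the starts of other genes within 4 kb.

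More promoters were past the fold in Ni-W. In Ni-W against UT, 16 members were higher (2.58%), against 1.56% of the 11432 listed promoters that were above 0 and below 1 RPKM in UT and 1.12% of all listed promoters. Neither set was matched to the members by UT level, and a promoter lower in UT needs a larger fold to reach 1 RPKM. The difference in shares was not tested. In Ni-W against Ni-E, 14 members were higher (2.26%, against 1.36% of those unmarked promoters and 1.04% of all) and TMEM265 and DRD1 were lower (0.323%, against 0.14% and 1.34%). The median log2 ratio of the members in Ni-W against UT was 0.1862 after division by the library median and −0.3005 without it, so that its direction depended on the scaling. The corresponding medians over all listed promoters were −0.0829 and −0.5696.

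SYK (chr9:90801787-90898549) and GRB7 (chr17:39737927-39747291) had the highest levels in Ni-W. SYK, a tyrosine kinase of immune receptor signalling that epithelia also use, stood at 0.661 RPKM in UT (95% Wilson interval 0.527 to 0.828), 0.713 in Ni-E (0.591 to 0.862) and 3.299 in Ni-W (2.99 to 3.64). GRB7, an adaptor of ERBB receptors, stood at 0.775 RPKM in UT (0.629 to 0.955), 0.38 in Ni-E (0.293 to 0.492) and 3.09 in Ni-W (2.79 to 3.42). The Ni-W intervals of both lay above those of UT and Ni-E. Both genes have annotated starts more than 2 kb from the GENCODE start located here, and the RefSeq start behind the printed SYK stretch lies upstream of that GENCODE start. In RT4 neither was called, with SYK at 19.62 and 13.84 TPM in UT and GRB7 at 32.59 and 22.34 TPM.

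GALNT3, which starts mucin-type O-glycosylation, was at 0.713, 0.58 and 2.071 RPKM in UT, Ni-E and Ni-W. SNURF, in the imprinted SNRPN locus, had the largest ratio among members at 1 RPKM or more in either library, with 0.194 RPKM in UT (0.128 to 0.293), 0.18 in Ni-E (0.124 to 0.262) and 1.395 in Ni-W (1.20 to 1.62), a log2 ratio of 3.33. CPVL, a carboxypeptidase, was already higher in Ni-E, at 0.273 RPKM in UT (0.192 to 0.388), 0.653 in Ni-E (0.536 to 0.796) and 1.236 in Ni-W (1.05 to 1.45). SYK, KCNK1, ELF1 and SNORA31 were above UT in Ni-E as well, in RPKM and after division by the library median. The SYK intervals of UT and Ni-E overlapped, however. Over all members, the median log2 ratio in Ni-E against UT was itself 0.1643 after this division and −0.0127 without it. Whether SYK, KCNK1, ELF1 and SNORA31 gained H3K4me3 in Ni-E was not tested.

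KLF5 was the 1 gene of the lineage lists among the 16, with 0.634 RPKM in UT (0.504 to 0.799), 0.54 in Ni-E (0.435 to 0.671) and 1.153 in Ni-W (0.976 to 1.36). In RT4 its TPM was 126.13 and 68.2 in UT, 125.82 and 83.48 in Ni-E, and 159.95 and 73.77 in Ni-W, and it was not called. Another 9 were HOXD8, PCSK6, DNAJA4, KCNK1, ELF1, ZNF883, ATP13A3, C15orf48 and SNORA31. C15orf48 was the only 1 of the 16 called in RT4, where it was lower in Ni-E, at 12.69 and 13.12 TPM in UT, 3.32 and 3.69 in Ni-E, and 21.97 and 20.32 in Ni-W. The 12 of the 16 with a promoter sequence held from 0 to 54 CpG with a median of 19, while 18 of the 26 members called lower in RT4 Ni-E had a sequence, with a median of 4.5.

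**Figure D5:**
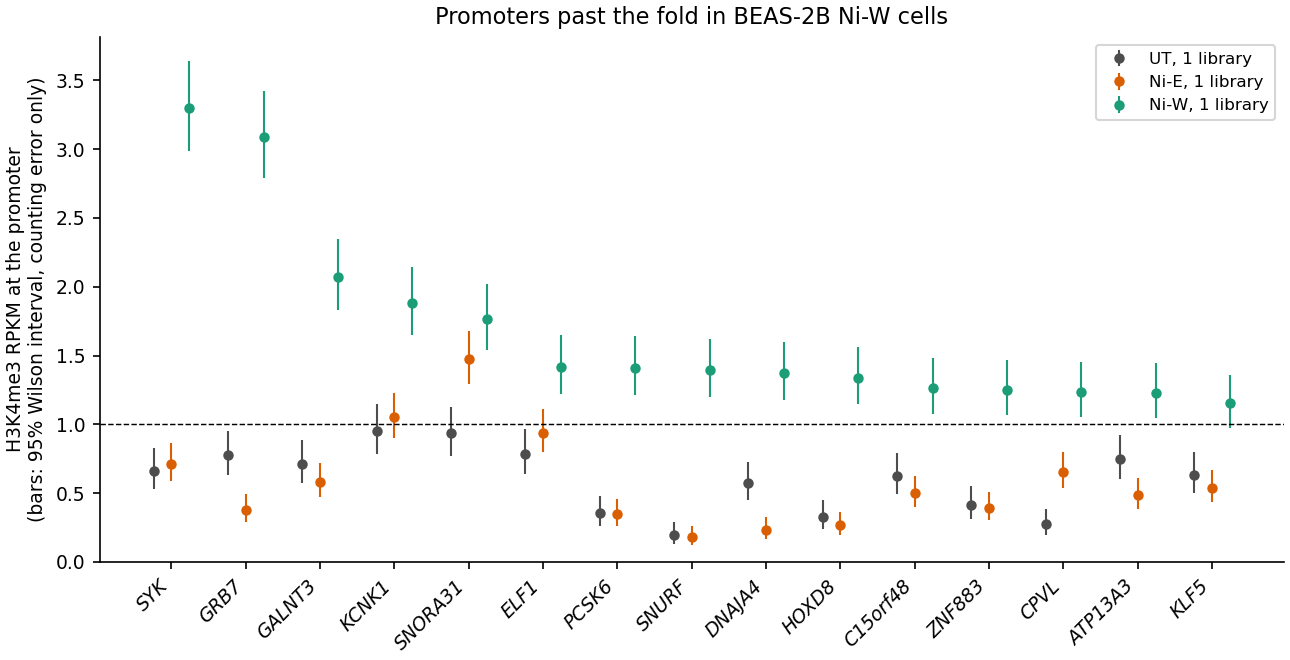
H3K4me3 RPKM (vertical axis, from 0) at the promoters of 15 of the 16 members past the fold in BEAS-2B Ni-W against UT, with 95% Wilson intervals for counting error and 1 library per condition. The dashed line is 1 RPKM, and SYK at 3.299 and GRB7 at 3.09 have the highest Ni-W levels.

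The bladder lineage promoters otherwise stayed below 1 RPKM in Ni-W, with differences in both directions. MAL was at 0.185 RPKM in UT (0.121 to 0.283), 0.207 in Ni-E and 0.535 in Ni-W (0.419 to 0.683). KRT19 was at 0.432 (0.327 to 0.571), 0.44 and 0.735 RPKM (0.597 to 0.905), while CLDN4 was at 0.247 (0.171 to 0.356), 0.24 and 0.042 RPKM (0.0178 to 0.0978). The UT and Ni-W intervals of these 3 genes did not overlap, but the levels are under 100 reads each. UPK1A was at 0.211, 0.14 and 0.125 RPKM, and UPK2 at 0.176, 0.187 and 0.1 RPKM, with overlapping intervals. CYP4B1, at 0.299, 0.36 and 0.242 RPKM, had overlapping intervals as well. Further list members had less RPKM in Ni-W than in UT, among them LCN2 (0.617 in UT, 0.242 in Ni-W) and CA9 (0.546, 0.267). PRSS22 (0.352, 0.142), PRSS8 (0.299, 0.117), TMPRSS4 (0.291, 0.117) and TJP3 (0.361, 0.167) were lower too. Others had more, among them AGR2 (0.141, 0.309), AKR1C3 (0.308, 0.526) and UPK1B (0.291, 0.426). These levels are not divided by the library median, which was 1.568 RPKM in UT and 1.119 in Ni-W.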

How the data were processed

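RT4 RNA-Seq and BEAS-2B H3K4me3 ChIP-Seq files were analysed. The RT4 tables deposited by the authors held estimated counts made with RSEM, TPM, and FPKM, which was not used. Their methods name STAR, hg19 and RefSeq, and the submitters' processing notes list GRCh38 and hg38, so the build behind the counts is not settled. For ChIP-Seq, the authors deposited RPKM of a 4 kb promoter window from reads aligned with BWA. Input libraries were not used.

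Estimated counts were rounded and tested with edgeR 4.0.16 in R 4.3.3 (quasi-likelihood, TMM factors, filterByExpr) in 1 model of 3 groups over 14502 genes, and p-values were adjusted over all of them. Calls needed 1.5-fold and an adjusted p below 0.05. These are the limits in the study's methods, which applied them to DESeq2 rather than edgeR. Levels between genes are TPM and fold changes come from counts. Alternatives were DESeq2 1.42.0, limma 3.58.1, filters, scalings, other limits of the rule, leaving out each replicate, and a replicate block. RPKM values were whole multiples of the value of 1 read in every library (100.0%), which gave reads and depth. Reads carry no molecular identifiers, so the 95% Wilson intervals cover counting error only. Levels were divided by the library median, with 3 reads as the floor.

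On simulated data with 200 changed genes for Ni-E against UT, edgeR recovered 84 of 100 genes changed 4-fold and 99 of 100 changed 8-fold, with 7 false calls. The changed genes lay above 5 CPM and the replicates were drawn independently. These rates therefore do not cover smaller changes, lower counts or deviations shared by same-numbered samples. Positions came from GENCODE version 44 and promoter sequences from RefSeq (GRCh38.p14), which matched 423 of 619 members. Named were the 15 highest members, the 5 largest rises and falls per comparison among those called at a mean of 5 CPM or more with no overlap, members of the gene lists, the 5 highest and lowest promoter ratios per comparison at 1 RPKM or more, and the genes at the limits. The members and the lists were chosen with earlier results of these data known. Some genes met these rules and are not reported here.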

Additional observations from a re-analysis of the deposited data

How the results depend on the processing

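Values here are counts of members, given as higher and lower, unless a share is stated. Where no share of all genes or promoters stands beside a count, more calls among members cannot be told from more calls everywhere. For Ni-E against UT in RT4 (6 and 26), DESeq2 gave 19 and 56. These were 3.12% and 9.2% of the tested members, against 3.39% and 1.99% of all genes tested. A limit of 5 TPM gave 10 and 37, of 20 TPM 4 and 17, a limit of 0.5 RPKM 3 and 19, and members with 1 start region, an alternative chosen after seeing the data, 3 and 17. Leaving out 1 replicate gave 0 to 8 and 0 to 30. For Ni-W against UT (0 and 4), DESeq2 gave 17 and 26, no filter 4 and 8, limma on log2(TPM + 1) 4 and 7 and on log2(TPM + 0.1) 4 and 5, a fit of the 2 groups 0 and 0, a limit of 5 TPM 3 and 6, of 0.5 RPKM 0 and 2, and members with 1 start region 0 and 1. Leaving out 1 replicate gave 0 to 1 lower. For Ni-W against Ni-E (0 and 0), DESeq2 gave 19 and 4, no filter 5 and 0, and limma on log2(TPM + 0.1) 4 and 0. Where a replicate was left out, the lone sample was assumed to vary like the other groups. The cause of these differences was not tested. No member called by edgeR changed direction under an alternative that tested it.

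Replicate numbers come from the titles, and nothing says that a number marks a shared batch, so that the samples share only a number. Deviations of same-numbered samples correlated at 0.6575 (UT and Ni-E), 0.7642 (UT and Ni-W) and 0.6888 (Ni-E and Ni-W) over 14502 genes. With the number as a replicate block, 46 and 102 members were called in Ni-E against UT, 43 and 59 in Ni-W against UT, and 52 and 17 in Ni-W against Ni-E, and all 6, 26 and 4 members called without the block stayed called. Over all genes tested the block called 7.64% and 5% in Ni-E against UT, 5.79% and 2.78% in Ni-W against UT, and 2.72% and 1.8% in Ni-W against Ni-E, beside 7.55% and 16.7%, 7.06% and 9.69%, and 8.54% and 2.79% of the tested members. Among genes described above that edgeR did not call without the block, it called ADIRF, AKR1C3, CA9, CYP4F11, DHRS2, GPX2, GRHL3, MAL, TJP3, UPK1B, UPK2 and UPK3A in Ni-E against UT, KRT15 and TJP3 in Ni-W against UT, and CA9, CST1, DHRS2, KRT15, MAL, UPK1B, UPK2 and UPK3A in Ni-W against Ni-E.

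For BEAS-2B promoters, a 1.5-fold limit gave 8 and 0 in Ni-E against UT. The share of all promoters past this limit is not given here, so that nothing is read from the 8. None could be lower, since all members were below 1 RPKM in UT. In Ni-W against UT (16 higher), a minimum of 2 RPKM gave 3, log2 ratios of RPKM + 1 gave 8, a limit of 20 TPM 9, of 0.5 RPKM 6, and members with 1 start region 8. In Ni-W against Ni-E (14 and 2), these gave 3 and 0, 8 and 0, 7 and 2, 6 and 0, and 7 and 2, while no scaling gave 12 and 6, scaling by background promoters 14 and 5, quantile normalization 14 and 6, and 1.5-fold 15 and 7. The number of members was 888 at 5 TPM, 397 at 20 TPM, 483 below 0.5 RPKM and 302 with 1 start region.

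With 2 replicates per group the RT4 calls rest on few samples, and with 1 ChIP library per condition the promoter counts have no replicate check.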
